A study of Oryza sativa Indica Group with 18 samples.

Results

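Seedlings of the indica rice cultivar IR20 were compared after 6 h and after 3 h of drought, to describe which transcripts developed or receded between the 2 times. The comparison used the 3 arrays labelled as IR20 after 6 h and the 3 arrays labelled as IR20 after 3 h, which are 6 of the 18 arrays of the series. The other arrays were 2 control groups and the cultivar Dagad deshi after 3 h and 6 h of drought, again with 3 arrays a group. All seedlings were 7 days old and grown in hydroponic medium, and drought was applied by moving them from the medium to sheets of Whatman paper under light. Total RNA of whole seedlings was labelled by a method that starts at the 3′ end of transcripts and was hybridized to the Affymetrix rice array. No control array entered the comparison, so the hours of drought and the hours elapsed cannot be told apart in it.

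Plants that lose water accumulate abscisic acid. Its receptors block protein phosphatases of the 2C class, which releases SnRK2 kinases to activate bZIP transcription factors and genes for late embryogenesis abundant (LEA) proteins and dehydrins, the hydrophilic proteins that also accumulate in drying seeds. Growth by cell division, by the loosening of cell walls with expansins and by hormones such as auxin and gibberellin is known to slow in the same hours, and chlorophyll in stressed leaves is broken down by a pathway that reduces chlorophyll b to chlorophyll a and removes the magnesium of the ring. These are general features of drought in plants and not results of these arrays.

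Changes are given as the mean log2 value of the 3 arrays at 6 h minus that of the 3 arrays at 3 h, where the log2 value is that of the deposited intensity plus 16, with the standard error (SE) and a p adjusted by the Benjamini-Hochberg method over 57258 probe sets from limma. Adding 16 understates the change of weak probe sets. A fold is that of the mean log2 values, and so of intensity plus 16, and differs from the ratio of the intensities printed beside it. An adjusted p under 0.05 was called. The arrays of a group are labelled as biological replicates, but nothing says whether they came from separate cultures, so the p-values measure the spread between these arrays, which may be technical. With 3 arrays a group, precision is limited by their number. By this rule 6351 probe sets were higher at 6 h (11.1%) and 6944 were lower (12.1%), and 1050 (1.83%) and 1226 (2.14%) of them changed by more than 1 on the log2 scale. Of the calls, 47.77% were higher when values were used as deposited and 19.99% when each array was centred on its median, with 6243 probe sets higher and 24988 lower. The median of all probe sets moved by 0.00282 as deposited and by -0.0075 after centring. Among the 2457 genes that RefSeq names by more than a number, read from 1 probe set each, 544 were higher (22.1%) and 808 lower (32.9%), with a median change of -0.04. Counts of list members are set beside these shares, 22.1% and 32.9%. Of the called list genes, 10 had a mean intensity under 16 in both groups, so that their calls rest on levels near background: AMY3E, CAD7, GSTF1, HSP16.6, IAA26 and KIN7A were lower, and HAK3, PHT1-11, YSL4 and YSL10 higher.

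One array stood apart. The replicate 1 array of the 6 h group differed from the other 2 by an SD of 0.2388 and 0.2322 on the log2 scale over all probe sets, against 0.1116 between those 2 and 0.0931 to 0.1215 among the 3 h arrays. Its index of 3′ to 5′ signal of actin, GAPDH and cyclophilin, a measure of RNA integrity and labelling, was 3.19 on the log2 scale, against 1.82 and 1.86 in the other 6 h arrays and 2.79 to 2.89 at 3 h. All 148 called genes that the naming rule chose remained called without that array. Some called list members named outside that rule did not, among them GSTF1, HAK3, HSP16.6, PHT1-11 and WRKY71. Counts of list members without that array are given where they moved by 1.5 times or more. When the control arrays joined the estimate of the spread, 13 of the 148 were no longer called: ABA8OX2, AMY3E, BADH1, EP3A, GAPC, GI, HSP81-3, MT1B, MT4A, MT4C, PORA, TIP2-1 and UBQ4. The index averaged 2.29 ± 0.778 (SD, n = 3) at 6 h and 2.85 ± 0.048 (SD, n = 3) at 3 h (exact permutation test, two-sided, p = 0.4, where 0.1 is the smallest p that 3 arrays against 3 allow). The array median was 7.39 to 7.44 at 6 h and 7.18 to 7.30 at 3 h, with no overlap (exact p = 0.1). The part of RNA quality and of the array median in the changes was not tested beyond the fits given under the alternatives. Leaf and root marker genes gave signal in all 6 arrays, whose tissue is labelled as seedling: the summed intensity of 6 leaf and shoot markers was 100652 to 103110 at 3 h and 79201.5 to 88495.8 at 6 h, with RBCS1 below 16 in both groups, and that of 18 root markers was 14080.3 to 14509.1 and 16362.5 to 19724.2, with 5 phosphate transporter genes below 16. The sum of 12 markers of the seed remainder was 4763.37 to 5349.68 at 3 h and 1880.66 to 2160.43 at 6 h, with 8 genes below 16. AMY1A made up the fall: without it the sum was 1606 to 1702 at 3 h and 1839.9 to 2109 at 6 h. GLB1, which entered by an older symbol and may not be a seed gene, made up that rise: without it and AMY1A the sum was 475 to 508 and 364 to 405. In whole seedlings, fewer cells of a type and less RNA per cell cannot be told apart, and the part of tissue proportions in the changes of single genes was not tested.

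Most LEA proteins and dehydrins rose between 3 h and 6 h. Of 8 measured genes, 7 were higher at 6 h and none was lower, with a median change of 0.97, against a median of 0.00282 over all probe sets, of which 11.1% were higher; the share higher was 87.5%, against 22.1% of the 2457 genes. RAB16D, a dehydrin, had intensities of 2912, 3611 and 2484 in the 3 h arrays and of 32825, 32054 and 31866 in the 6 h arrays. The groups did not overlap, and intensity plus 16 was 10.8-fold higher at 6 h, a log2 change of 3.43 ± 0.10 (SE, n = 3 per group; limma, adjusted p = 1.84e-08). RAB25, another dehydrin, read 3748, 3310.0 and 3303 at 3 h and 19256, 16114 and 17973 at 6 h, so that every 6 h array lay above every 3 h array (change 2.36 ± 0.075, adjusted p = 2.45e-08). RAB16C and EM, an LEA gene best known from embryos, rose by 1.28 ± 0.049 and 1.14 ± 0.075. The rises of LEA19, RAB21 and RAB16B were smaller, at 0.80, 0.45 and 0.44, from high levels at 3 h. LEA19 read 17678, 18511 and 18260 there, RAB21 28944, 30531 and 28737, and RAB16B 35757, 36310 and 35448. LIP9, a dehydrin, read 26687, 27136 and 28155 at 3 h and was not called (change 0.15, adjusted p = 0.0601). Whether such levels limit a further rise on the array was not tested. Without the 6 h replicate 1, the same count of 7 was called higher.

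**Figure D1:**
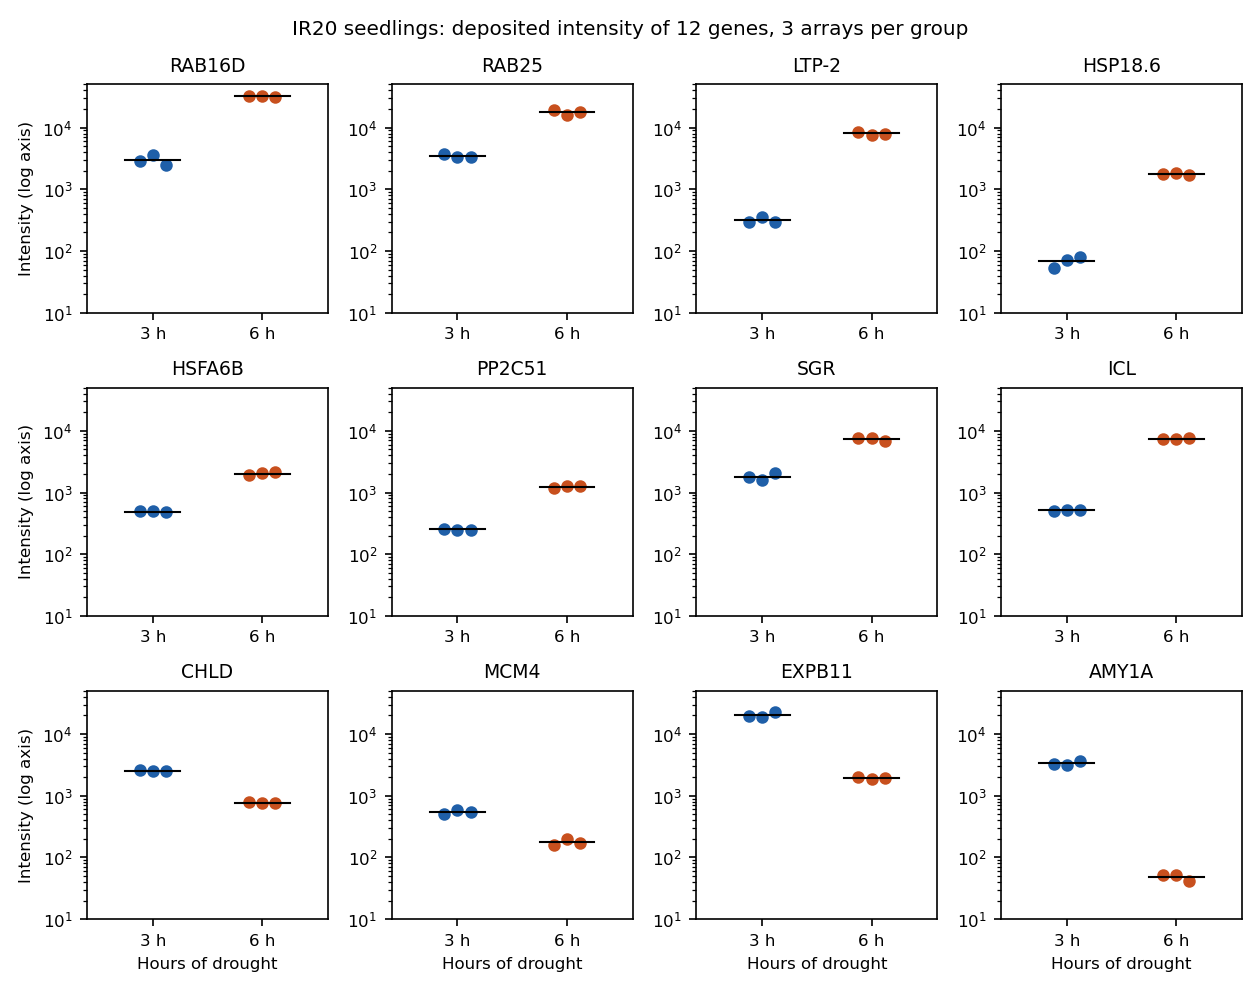
Deposited intensity (log axis) of 12 genes in the 3 IR20 arrays at 3 h (blue) and the 3 at 6 h (orange); each point is an array and each line is a group mean. In all 12 panels the groups do not overlap, with RAB16D between 31866 and 32825 at 6 h and AMY1A between 40.7 and 51.3.

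R1C-Prx and TIP3-1, genes known from seeds, were among the 10 with the largest rise, and so were LTP-2, ICL and Cht1. LTP-2, a lipid transfer protein gene, rose the most of all genes with a name, from 293, 354 and 290.2 to 8613, 7495 and 7996 (change 4.62 ± 0.08, adjusted p = 8.25e-10), which is 24.6-fold for intensity plus 16. R1C-Prx, a peroxiredoxin known from seeds, read 109, 114 and 72.2 at 3 h and 2465, 2548 and 2425 at 6 h (change 4.47 ± 0.12). Neither gene had overlapping groups. TIP3-1, a tonoplast aquaporin typical of seeds, rose by 2.61 ± 0.081, and ICL, the isocitrate lyase of the glyoxylate cycle, went from 493, 522 and 521 to 7344, 7422 and 7526 (change 3.82 ± 0.11, adjusted p = 1.49e-08). Cht1, a chitinase, rose by 2.45 ± 0.13. In contrast, the glutelin and prolamin genes of the seed marker list were not called, and all but GLUA2 were below an intensity of 16. The list as a whole had 1 gene higher and 3 lower of 12, and 2 were higher without the 6 h replicate 1. Among the genes lower was AMY1A, which had the largest fall of all probe sets. Of the 5 genes of the lipid transfer list, LTP-2 and LTP rose, the latter by 0.99 ± 0.051, and 3 were not called. Groups that do not overlap in the direction of the change were found for 14355 probe sets higher (25.1%) and 9090 lower (15.9%) of all tested.

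Genes of abscisic acid signalling were called in both directions. Among 56 protein phosphatase 2C genes, 15 were higher (26.8%) and 19 lower (33.9%) at 6 h, near the 22.1% and 32.9% over the 2457 genes, with a median of -0.036. PP2C51 was the member that rose most, from 256, 250.3 and 249 at 3 h to 1202, 1271 and 1276 at 6 h (change 2.24 ± 0.056, adjusted p = 5.61e-09). The groups lay far apart in the probe set with the highest mean, while a second probe set of the gene changed by 0.40 and was not called. PP2C16 and PP2C59 rose by 1.11 ± 0.099 and 1.06 ± 0.066. The 10 SnRK2 kinases, SAPK1 to SAPK10, split into 4 higher (40%) and 3 lower (30%). SAPK1 read 1248, 1251 and 1187 at 3 h and 3977, 3915 and 4143 at 6 h, a rise of 1.69 ± 0.036 (adjusted p = 2.22e-09). SAPK7 read 1063, 1172 and 1149 and then 405, 431 and 474, a change of -1.34 ± 0.078 (adjusted p = 1.1e-06), so the 2 kinases moved in opposite directions with no overlap in either. SAPK6 and SAPK3 rose by 0.94 ± 0.057 and 0.76 ± 0.10. Without the 6 h replicate 1, 3 SnRK2 genes were called higher and 2 lower.

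Of the genes for making and breaking down abscisic acid, ABA8OX1, a hydroxylase that inactivates the hormone, rose by 0.67 ± 0.075, from 1256, 1346 and 1395 to 2212, 2069 and 2109. ABA8OX2, of the same family, changed by -0.33 ± 0.049 (adjusted p = 0.000723), and the epoxidase gene ZEP was not called. The receptor gene PYL11 rose by 0.57 ± 0.063, and ABF2, a bZIP factor of the response, fell, with a change of -0.39 ± 0.045; 3 of the 5 receptor and bZIP genes were not called. DREB2A and DREB2B, whose products switch on genes of dehydration and heat, were higher at 6 h. DREB2B went from 519, 539 and 512 to 1006, 1410.4 and 1388 (change 1.24 ± 0.13), with the lowest 6 h value in replicate 1 and still above all 3 h arrays. DREB2A rose by 0.92 ± 0.1, and DREB1G, of the cold-response subgroup, changed by -0.72 ± 0.13 (adjusted p = 0.00284), while the other 7 of 10 DREB and ERF genes were not called. Of 25 HD-Zip genes, plant homeobox factors, 6 were higher (24%) and 11 lower (44%), beside 22.1% and 32.9% of the 2457 genes. HOX12 and HOX7 rose by 1.41 ± 0.06 and 1.02 ± 0.13, and HOX15 and HOX9 fell, with changes of -1.21 ± 0.064 and -1.01 ± 0.058.

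Genes for compatible solutes rose where they were called. P5CS2, the enzyme that starts proline synthesis from glutamate, read 1106, 1180.4 and 1111 at 3 h and 2101, 2655 and 2818 at 6 h (change 1.13 ± 0.11, adjusted p = 4.62e-05), with no overlap. The other 3 probe sets of this gene were not called, with changes of 0.0033 to 0.091. OAT, which makes the proline precursor from ornithine, rose by 0.89 ± 0.096, with its second probe set at 1.28 but not called, and PROT, a proline transporter, by 0.60 ± 0.098. BADH1, an aldehyde dehydrogenase of betaine synthesis, was at the edge of the threshold (change 0.22 ± 0.069, adjusted p = 0.0448) and was not called when any 3 h array, or the 6 h replicate 2 or 3, was left out. P5CS1 and BADH2 were not called. In all, 4 of 6 genes were higher (66.7%, against 22.1% of the 2457 genes) and none lower.

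More heat shock genes rose than fell. Small heat shock proteins hold unfolded proteins in a soluble state, and heat shock factors control their transcription. Of 19 small heat shock protein genes, 10 were higher (52.6%, against 22.1% of the 2457 genes), 2 lower and 7 not called, with a median of 0.56, and 6 rose by more than 1. HSP18.6 had intensities of 52.4, 72 and 81 at 3 h and of 1755, 1823 and 1679.8 at 6 h, which is 21.2-fold for intensity plus 16 (change 4.40 ± 0.14, adjusted p = 2.8e-08). All 6 h arrays were high and close together, and a second probe set of the gene rose by 3.95, while the other was not called (0.01). HSP17.9 went from 1626, 1679 and 1239 to 9168, 7223 and 8515 (change 2.45 ± 0.14). HSP16.9A rose by 2.24 ± 0.094, HSP16.0 by 1.71 ± 0.089 and HSP17.4 by 1.47 ± 0.12. HSP16.0 was near background at 3 h (11.8, 11.9 and 12.7). HSP18.0 rose by 3.41 ± 0.15 from a level near background, 16.6, 19 and 13.3, and its 2 other probe sets were not called. The 2 genes that fell were HSP22.3, with a change of -0.57 ± 0.11, and HSP16.6, with -0.16 ± 0.044; HSP16.6 was under 16 in both groups and was not called without the 6 h replicate 1.

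Of 20 heat shock factors, 11 were higher (55%) and 2 lower, with a median of 0.37. HSFA6B read 494, 501 and 481 at 3 h and 1906, 2062 and 2119 at 6 h, with no overlap (change 2.01 ± 0.048, adjusted p = 4.69e-09). HSFB2B had the largest change among the probe sets that stand for the family, 2.45 ± 0.098, from 67.5, 64.5 and 59.6 to 412, 482 and 373, but its second probe set was not called (0.0021). HSFA2A, HSFC1B and HSFA2E followed with 1.74 ± 0.20, 1.55 ± 0.072 and 1.06 ± 0.057. The 2 other probe sets of HSFA2A were also called higher, at 0.53 and 0.78. Members of 1 subclass went different ways: HSFA2C fell, with a change of -1.07 ± 0.071 (adjusted p = 2.59e-06), whereas HSFA2A rose and HSFA2B was not called (-0.12). HSFC1A also fell, with -0.73 ± 0.13. The other chaperones were mixed, with 8 of 24 higher (33.3%) and 6 lower (25%), beside 22.1% and 32.9% of the 2457 genes. CLPB1, the HSP100 disaggregase of the cytosol, rose from 54.2, 61.6 and 61.4 to 241, 212 and 201 (change 1.64 ± 0.092). DJC27, an ER protein of the DnaJ class, rose by 0.89 ± 0.055 and HSP81-3, an HSP90 gene, by 0.82 ± 0.082. Of the 5 probe sets of HSP81-3, 1 other was also called higher, and those beside the main one changed by 0.0093 to 0.78. All but 1 of the members of this list that fell were protein disulfide isomerases, which fold proteins in the endoplasmic reticulum, with PDIL1-5 at -0.62 ± 0.11 and PDIL1-4 at -0.55 ± 0.12; the exception was DJB6, of the DnaJ class.

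Chlorophyll genes divided by pathway. Of 16 genes for chlorophyll synthesis, 15 were lower at 6 h and none was higher, with a median of -1.25, and 9 fell by more than 1; over all probe sets 12.1% were lower, and over the 2457 genes 32.9%, against 93.8% here. All 4 genes for chlorophyll breakdown were higher, with a median of 1.28. The falling genes covered the pathway from its first steps, where GLUTR and GSA make aminolevulinic acid (-1.25 ± 0.091 and -1.25 ± 0.039), through the porphyrin ring steps to CHLG, the chlorophyll synthase (-1.30 ± 0.13). PPOX1, the protoporphyrinogen oxidase, read 2056, 1909 and 1874 at 3 h and 439, 433 and 388 at 6 h, so that intensity plus 16 was 4.51-fold higher at 3 h (change -2.17 ± 0.094, adjusted p = 1.53e-07). CHLD, a subunit of the magnesium chelatase, went from 2580.0, 2486 and 2543 to 779, 773 and 764, with a spread within each group that was small beside the gap (change -1.70 ± 0.042, adjusted p = 5.2e-09). The other chelatase subunits, CHLH and CHLI, changed by -1.27 ± 0.11 and -0.62 ± 0.097. CHLI was near background, at 15.8, 24 and 21.1 at 3 h and 6.22, 10.3 and 6.2 at 6 h. PORA and PORB, which reduce protochlorophyllide, changed by -1.86 ± 0.097 and -0.57 ± 0.076, and the uroporphyrinogen decarboxylases URO-D2 and URO-D1 by -1.62 ± 0.15 and -1.43 ± 0.083. HEMB, which joins aminolevulinic acid into a pyrrole, was not called (-0.35 ± 0.11, adjusted p = 0.0511).

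SGR, the magnesium dechelatase known as STAY-GREEN, read 1763, 1601 and 2078 at 3 h and 7550.4, 7512 and 6935 at 6 h (change 2.01 ± 0.093, adjusted p = 2.39e-07), with no overlap, and its second probe set also rose. NYC1, a chlorophyll b reductase, went from 3330.4, 3234 and 3291 to 7142, 8651 and 9054 (change 1.32 ± 0.11), where the 6 h replicate 1 was the lowest of its group and above all 3 h arrays. RCCR1, the red chlorophyll catabolite reductase, rose by 1.24 ± 0.079, and NOL, the partner of NYC1, by 0.23 ± 0.045, though the second probe set of NOL was not called (-0.061). Of 14 photosynthesis genes, 5 were lower (35.7%, near the 32.9% of the 2457 genes), 1 was higher and 8 were not called. LFNR1, the leaf ferredoxin-NADP reductase, fell from 4922, 4756 and 4878 to 1164, 1195 and 1106 (change -2.06 ± 0.065, adjusted p = 2.27e-08), and PSB28, a protein of photosystem II assembly, changed by -1.89 ± 0.12. The chlorophyll-binding protein genes RCABP69 and LHCP changed by -0.62 ± 0.053 and -0.30 ± 0.054, and they are also 2 of the 6 leaf and shoot markers whose summed level was lower at 6 h. The Rubisco small subunit gene RBCS was not called (-0.51, adjusted p = 0.201). LIR1, a light-regulated chloroplast protein, was the member that rose (0.26).

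**Figure D2:**
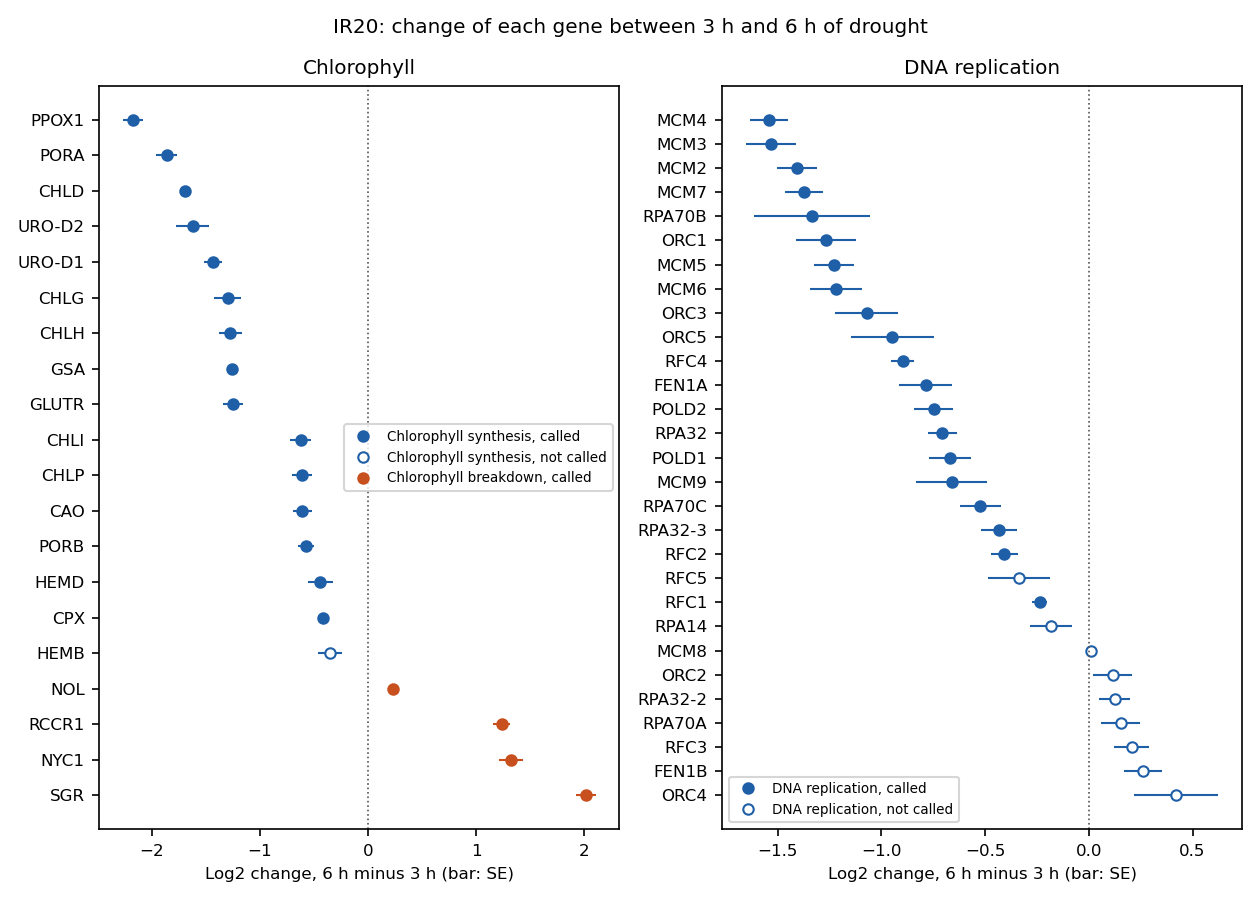
Log2 change from 3 h to 6 h in IR20 with its SE (horizontal axis) for each gene of chlorophyll synthesis and breakdown (left) and of DNA replication (right); filled points passed an adjusted p under 0.05. In the left panel 15 of 16 synthesis genes are called below 0 and 4 of 4 breakdown genes above 0, and in the right panel 20 of 29 genes are called, all below 0.

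Most genes of DNA replication fell. Of 29 replication genes, 20 were lower at 6 h (69%, against 32.9% of the 2457 genes) and none was higher, with a median of -0.67, and without the 6 h replicate 1 the count was 19. The MCM2 to MCM7 proteins form the ring-shaped helicase that opens DNA at replication origins, and all 6 genes fell, with changes from -1.54 to -1.22. MCM4 read 510.2, 578 and 540.2 at 3 h and 161, 195 and 173 at 6 h (change -1.54 ± 0.091, adjusted p = 1.26e-06), and MCM3 went from 683, 619.6 and 600.3 to 253, 190.1 and 187 (change -1.53 ± 0.12). Neither showed an overlap between the groups. MCM2 and MCM7 changed by -1.41 ± 0.096 and -1.37 ± 0.091. Of the origin recognition complex, which loads the helicase, ORC1, ORC3 and ORC5 fell (-1.27, -1.07 and -0.95), and ORC2 and ORC4 were not called. The polymerase delta subunits POLD1 and POLD2 changed by -0.67 ± 0.10 and -0.75 ± 0.094. MCM8, which is not part of the helicase ring, was near background (5.97, 5.82 and 5.93 at 3 h) and was not called (0.01). MCM9, which is also not one of MCM2 to MCM7, fell, with a change of -0.66 ± 0.17 (adjusted p = 0.0191).

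Kinesins are microtubule motors, of which only some act in the mitotic spindle or the plane of cell division. In this list 21 of 34 were lower (61.8%), 1 was higher and 12 were not called (median -0.46). KIN7K changed by -1.20 ± 0.084, KIN10B by -1.10 ± 0.10 and KIN12C by -1.08 ± 0.087. Among cyclins and cyclin-dependent kinases, 16 of 41 were lower (39%) and 7 higher (17.1%), near the 32.9% and 22.1% over the 2457 genes (median -0.16). CYCB1-1, a cyclin of the entry into mitosis, read 1136, 1216 and 1072 at 3 h and 603, 600.1 and 628 at 6 h, with no overlap (change -0.88 ± 0.061, adjusted p = 3.53e-06), and CYCB2 changed by -0.87 ± 0.076. PCNA, the sliding clamp of DNA polymerase, entered this list through an older name and changed by -0.94 ± 0.11. CDKE-1, a kinase of the Mediator complex that regulates transcription, went the other way, with a rise of 1.03 ± 0.10. The 6 histone genes of the list were CENH3, the histone of centromeres, and H2B genes, with no other class of histone, and 5 fell. CENH3 had the largest change (-0.92 ± 0.13), followed by H2B.10 (-0.69 ± 0.13). H2B.11 was at the edge of the threshold (-0.19 ± 0.060, adjusted p = 0.0491).

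More auxin signalling genes were lower than higher. The list joins the Aux/IAA repressors and the auxin response factors, and 28 of its 43 genes were lower at 6 h (65.1%, against 32.9% of the 2457 genes), 4 were higher and 11 were not called, with a median of -0.37. IAA10 read 750.0, 821 and 704 at 3 h and 399, 313 and 348 at 6 h (change -1.07 ± 0.11, adjusted p = 6.07e-05). ARF15 changed by -0.98 ± 0.043, while ARF16 rose from 506, 466 and 452 to 954, 875 and 929 (change 0.93 ± 0.065), so the 2 response factors moved apart. In the brassinosteroid list, 6 of 12 were lower (50%) and none was higher. CYP734A6, which inactivates the hormone, changed by -1.02 ± 0.11 and BZR1, a transcription factor of its pathway, by -0.96 ± 0.087. SLR1, the DELLA repressor of gibberellin growth responses, fell from 984, 987 and 959.8 to 502, 302 and 384 (change -1.30 ± 0.17), and the synthesis gene KAO changed by -0.89 ± 0.098 at a level near background at 6 h. In all 3 gibberellin genes were higher (37.5%) and 4 lower (50%) of 8, and without the 6 h replicate 1 the former count was 2. Cytokinin genes split into 8 higher (25.8%) and 10 lower (32.3%) of 31, near the 22.1% and 32.9% of the 2457 genes. Among them, LOGL10, an activating enzyme, changed by -1.45 ± 0.18 and the response regulator RR9 by -1.37 ± 0.097. Of 19 jasmonate synthesis genes, 8 were lower (42.1%) and 2 higher (10.5%), beside 32.9% and 22.1% of the 2457 genes. The lipoxygenases LOX2.1 and LOX1.1 changed by -1.49 ± 0.11 and -1.32 ± 0.22 and the allene oxide synthase AOS3 by 0.92 ± 0.098.

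Wall genes were among the 10 with the largest fall. EXPB11, a beta-expansin that loosens grass cell walls, read 19385, 19195 and 22444 at 3 h and 2017, 1862 and 1927 at 6 h, so that intensity plus 16 was 10.4-fold higher at 3 h (change -3.38 ± 0.074, adjusted p = 2.78e-09). EXPA2 went from 1259.8, 1375 and 1221 to 212, 228 and 191 (change -2.53 ± 0.076), and EXPA29 and EXPA1 changed by -2.25 ± 0.15 and -1.16 ± 0.12. Within the family, 12 of 29 expansins were lower (41.4%, beside 32.9% of the 2457 genes), 5 higher (17.2%, beside 22.1%) and 12 not called. GLU6, of the endoglucanase family that trims cellulose, changed by -2.52 ± 0.13, and ADF-9, an actin depolymerizing factor, by -2.55 ± 0.075. Cellulose synthases and related genes gave 16 lower (55.2%) and 3 higher of 29 (median -0.34), with CSLA9 and CSLC9 at -1.72 ± 0.12 and -1.13 ± 0.062 and CSLE1 and CSLA5 at 1.57 ± 0.076 and 1.24 ± 0.11. In the lignin list, 8 of 27 were higher (29.6%) and 9 lower (33.3%), beside 22.1% and 32.9% of the 2457 genes. There 4CL2, which activates the precursors, fell (-2.42 ± 0.13). The laccase LAC24 rose from 235, 195 and 191 to 1039.7, 983 and 1017 (change 2.21 ± 0.077). Of 10 plasma membrane aquaporins, 3 fell (30%) and 2 rose (20%), near the 32.9% and 22.1% of the 2457 genes. PIP2-7 read 11903, 12047 and 12984 and then 3246, 3316 and 3273 (change -1.90 ± 0.14, adjusted p = 6.66e-06). PIP2-4 and PIP2-5 changed by -1.09 ± 0.11 and -0.94 ± 0.13, while PIP2-6 rose by 0.59 ± 0.063. Of 15 other aquaporins, 4 rose (26.7%), among them TIP2-1 (0.60 ± 0.12), and 1 fell (6.67%).

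Of 18 sugar transporters, 4 were higher (22.2%) and 5 lower (27.8%), near the 22.1% and 32.9% over the 2457 genes. SWEET proteins carry sugars out of cells. SWEET12 went from 11.9, 13.5 and 13.3, a level near background, to 333, 259 and 284 (change 3.41 ± 0.16, adjusted p = 2.63e-07). SWEET11, of the same family, went from 811, 893 and 751 to 101, 92.2 and 83.2 (change -2.95 ± 0.13, adjusted p = 1.66e-07). The pair thus moved apart, each without overlap between groups. SWEET6A rose by 1.20 ± 0.097 and SWEET16 changed by -1.15 ± 0.17. SUS4, a sucrose synthase, rose from 2939, 3134 and 3064 to 9271, 10407 and 10611 (change 1.72 ± 0.077), SUS3 by 1.35 ± 0.14 and the neutral invertase NIN1 by 1.05 ± 0.08, while CIN1, a cell wall invertase, changed by -1.26 ± 0.061. Trehalose-phosphate phosphatases, which make trehalose from its signalling precursor, had 4 of 8 genes lower (50%) and none higher. TPP9 read 1833, 1740.2 and 1892 at 3 h and 976, 873 and 861 at 6 h (change -1.001 ± 0.072, adjusted p = 4.87e-06). TPP3, TPP2 and TPP1 changed by -1.35 ± 0.11, -0.71 ± 0.071 and -0.67 ± 0.093. TPP3 was near background at 6 h (9.16, 14.4 and 7.8).

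AMY1A, an alpha-amylase that degrades starch in germinating seeds, had the largest fall of all probe sets. Its intensities were 3309.7, 3157 and 3647 at 3 h and 51.3, 51.1 and 40.7 at 6 h, so that intensity plus 16 was 53.2-fold higher at 3 h. The groups were far apart and each was tight, and the change was -5.73 ± 0.69 (adjusted p = 0.000161). The SE is wide because the spread of a probe set was estimated over all 12 drought arrays, and AMY1A varied among the Dagad deshi arrays at 6 h (15639.6, 16842 and 1784). AMY3D, of the same enzyme family, changed by -1.36 ± 0.093, with its second probe set not called (0.00060), and AMY3E by -0.53 ± 0.023 at a level under 16. In contrast, the starch synthase SSI and the branching enzyme SBE rose by 1.21 ± 0.076 and 1.08 ± 0.15. Of the 8 probe sets of SBE, 3 others were also called higher, and those beside the main one changed by 0.0013 to 1.38. In the amylase and starch list 6 of 15 were lower (40%) and 3 higher (20%), beside 32.9% and 22.1% of the 2457 genes. EP3A, a cysteine protease also listed as SAG12, changed by -2.44 ± 0.38, from 117, 114 and 96.2 to 7.93, 6.31 and 6.9.

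**Figure D3:**
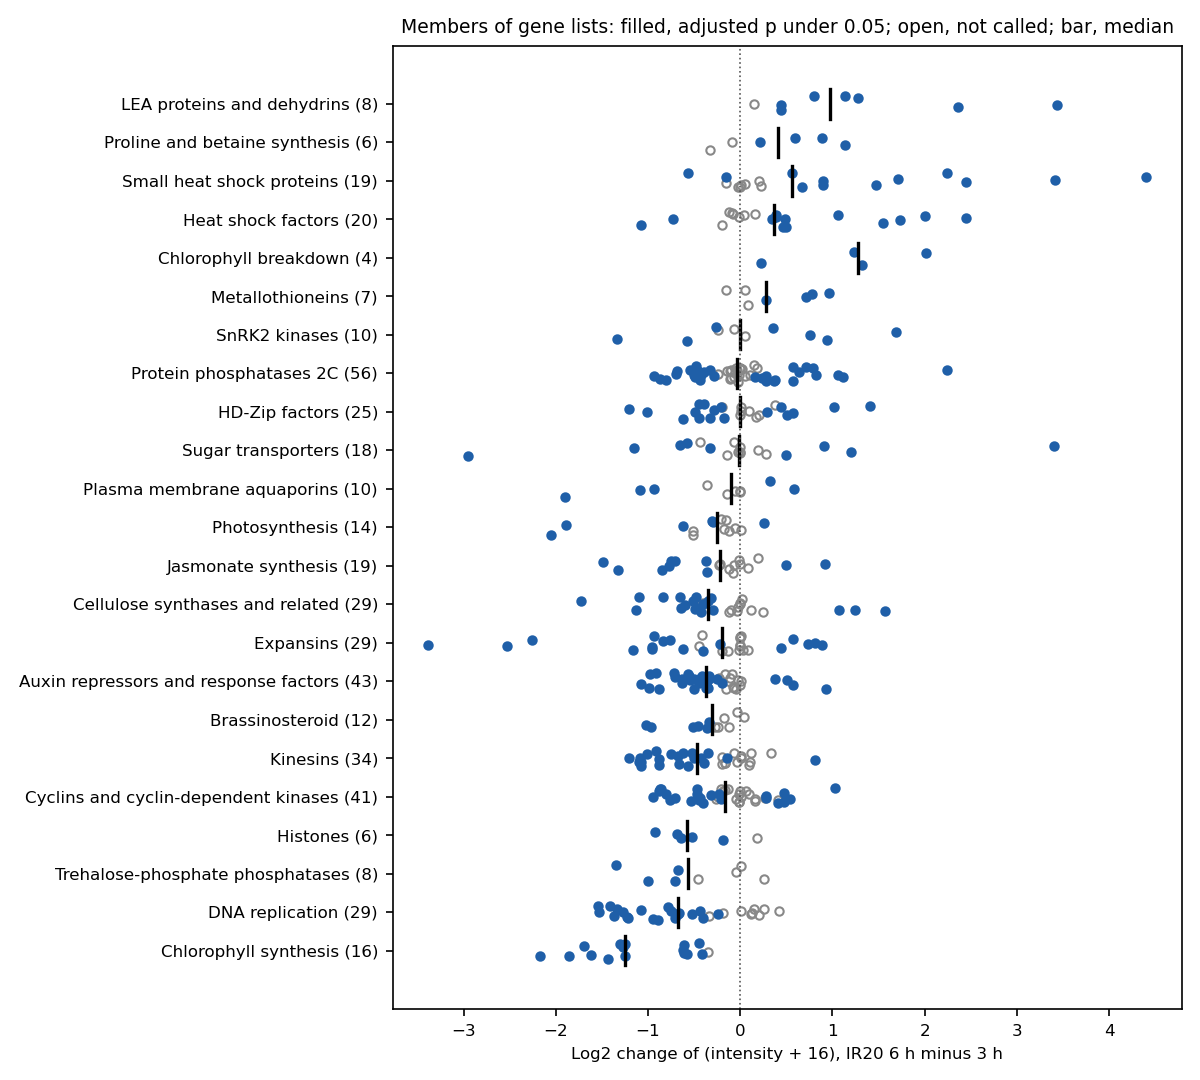
Log2 change from 3 h to 6 h in IR20 (horizontal axis) of every measured member of 23 gene lists, with the number of genes after each name; filled points passed an adjusted p under 0.05, open points did not, and bars are list medians. The medians run from -1.25 for chlorophyll synthesis to 1.28 for chlorophyll breakdown, and lists such as the protein phosphatases 2C have called members on both sides of 0.

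Nutrient genes also took both directions. NRT2.2, a high-affinity nitrate transporter of roots, went from 32, 25.1 and 28.2 to 503, 493 and 485 (change 3.52 ± 0.13, adjusted p = 5.56e-08), with no overlap. Its probe set is of a type that can also bind near-identical transcripts, so the gene among its relatives is uncertain. NRT2.3 rose by 1.02 ± 0.11 from a level near background, 15.1, 12.3 and 10.9, and its probe set is of the same type. GLN1-3, a cytosolic glutamine synthetase, rose from 233, 228 and 252 to 1149, 1129.8 and 974 (change 2.11 ± 0.08). Of 19 nitrogen genes, 7 were higher (36.8%) and 3 lower (15.8%), beside 22.1% and 32.9% of the 2457 genes. PHT1-2, a phosphate transporter, fell from 578, 634 and 543 to 91.3, 81.8 and 72.4 (change -2.62 ± 0.091, adjusted p = 4.19e-08), while the phosphate starvation factor PHR3 rose by 1.34 ± 0.069 and SPX4, of the phosphate-sensing SPX class, by 0.99 ± 0.17. The root marker list, whose summed level was higher at 6 h, held 8 genes called higher, of which PHT1-11 lay near background (7.38, 7.12 and 7.32 at 3 h and 7.71, 7.53 and 7.72 at 6 h) and was not called without the 6 h replicate 1, and 1 called lower, PHT1-2. Potassium transporters of the HAK family split, with HAK18 and HAK16 at 1.58 ± 0.094 and 1.27 ± 0.054 and HAK17 at -1.74 ± 0.15, and the channel AKT1 changed by -1.24 ± 0.066. Over the potassium and sodium list 8 were higher (28.6%) and 4 lower (14.3%) of 28.

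Of 7 metallothioneins, small metal-binding proteins, 4 were higher (57.1%, against 22.1% of the 2457 genes) and none lower. MT4A read 10120.1, 9936 and 9231 at 3 h and 19778, 18451 and 19026 at 6 h (change 0.97 ± 0.049, adjusted p = 4.23e-07), and MT4C and MT1B rose by 0.78 ± 0.08 and 0.72 ± 0.073. Antioxidant enzymes gave 5 higher (33.3%) and 4 lower (26.7%) of 15, beside 22.1% and 32.9% of the 2457 genes. SODCC2, a copper-zinc superoxide dismutase, rose by 0.98 ± 0.084, the catalase CAT-B by 0.77 ± 0.11, and the ascorbate peroxidase APX4 changed by -0.67 ± 0.063. PRXIIE-2, a peroxiredoxin of the type II class, went from 1659.6, 1765 and 1596 to 286, 229 and 217 (change -2.71 ± 0.13). This direction is opposite to that of R1C-Prx. Of 7 circadian clock genes, 3 were higher: PRR95 by 0.81 ± 0.097, GI by 0.73 ± 0.078 and PRR1 by 0.32 ± 0.071. None was lower, and 1 was without the 6 h replicate 1. The hour of day at sampling was not given in the labels, and its part in these values was not tested. WRKY76, WRKY51 and WRKY62, transcription factors of defence, rose by 1.21 ± 0.097, 1.01 ± 0.12 and 0.98 ± 0.093, and WRKY71, also called among 6, fell (-0.30) but was not called without the 6 h replicate 1.

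Members of the families used as reference genes in expression studies were given whether called or not, where a RefSeq symbol or synonym named them. Other members of these families were not looked up, so the counts are not of whole families. Among GAPDH genes, GAPC rose by 0.38 ± 0.041 (adjusted p = 7.62e-05), from 19910.1, 21289 and 20129.9 to 25676, 26637 and 27481. GAPC3 read 12364, 13102 and 12189 and then 11780.2, 11574 and 12582, with overlapping groups (change -0.07 ± 0.059, adjusted p = 0.375), and GAPC2 was near background at about the added constant of 16 (change -0.03 ± 0.032). Of 4 actin genes, ACT2 fell from 8628, 8367 and 7656 to 4059, 3749.7 and 4156 (change -1.04 ± 0.069, adjusted p = 2.87e-06), and the groups of ACT2 were well apart. ACT1 (-0.39 ± 0.14, adjusted p = 0.0673), ACT3 (-0.09 ± 0.085, adjusted p = 0.406) and ACT7 (0.29 ± 0.11, adjusted p = 0.0891) were not called in the probe sets that stand for them, but the second probe set of ACT1 was called lower (-0.54). ACT7 was called higher without the 6 h replicate 1 (0.39, adjusted p = 0.019). Of 6 ubiquitin genes, UBQ5 and UBQ2 fell, with changes of -0.96 ± 0.095 and -0.42 ± 0.054, and UBQ4 rose by 0.37 ± 0.079. UBQ1, RPS27AA and RPS27AB changed by -0.14 ± 0.049, -0.15 ± 0.052 and -0.17 ± 0.068 and were not called, though the first 2 were called lower without that array (adjusted p = 0.0463 and 0.0445). The cyclophilin CYP3 rose by 0.50 ± 0.072, with its second probe set not called (0.0014).

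Among all probe sets, the 3 with the largest rise and 2 of the 3 with the largest fall belonged to genes that the annotation names only by number. Both probe sets of LOC4326552, on chromosome 1, rose. The first read 19.1, 25.5 and 23.7 at 3 h and 1551, 2748 and 2634 at 6 h (change 5.87 ± 0.21), with the 6 h replicate 1 the lowest of its group, and the second rose by 5.53 ± 0.082. LOC4332421, on chromosome 3, went from 20.9, 14 and 19.5 to 1223, 1212 and 1124 (change 5.14 ± 0.086). LOC9270481, on chromosome 2, fell from 2617, 2344 and 2431 to 139, 141 and 148 (change -3.97 ± 0.069), and LOC4340498, on chromosome 6, from 814, 837 and 828 to 46.7, 36.6 and 37.9 (change -3.91 ± 0.19). In each of the 5 probe sets the groups did not overlap.

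Where the IR20 change differed from the change over the same hours in Dagad deshi, the second cultivar, was tested as an interaction in the same fit; the comparisons share no array. The difference was called for 3606 probe sets above (6.3%) and 4127 below (7.21%), and for 382 (15.5%) and 486 (19.8%) of the 2457 genes. In Dagad deshi itself, 2886 probe sets were higher (5.04%) and 3414 lower (5.96%) at 6 h than at 3 h, and of the 2457 genes 10.8% were higher and 17.9% lower. Of the 1050 probe sets that rose by more than 1 in IR20, with a median rise of 1.39 there and 0.25 in Dagad deshi, 894 had a called difference above 0 (85.1%), and of the 1226 that fell by more than 1, with medians of -1.31 and -0.33, 1002 had one below 0 (81.7%). These sets were chosen on the IR20 arrays, so the shares are descriptions. Across all probe sets the 2 changes had a Pearson r of 0.399, a description over probe sets that are not independent.

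Several leading genes had a high level in Dagad deshi at 3 h already. RAB16D read 18646, 18202 and 18112 there at 3 h and 25102, 25182 and 24412 at 6 h (change 0.44), so the IR20 change was larger by 2.99 (adjusted p = 1.74e-06). HSP18.6 read 3072, 2658 and 2783 at 3 h and 2141, 2487 and 1749 at 6 h (change -0.43), a difference of 4.83 (adjusted p = 7.31e-07). ICL read 5503, 5389 and 5348 at 3 h and 5984, 5670.1 and 8240.5 at 6 h, a difference of 3.55. In each case the 3 h arrays of Dagad deshi lay above those of IR20. Of the list genes, 7 of 8 LEA and dehydrin genes and 9 of 19 small heat shock genes had a called difference above 0, and 9 of 16 chlorophyll synthesis and 13 of 29 replication genes one below 0. CHLD, with a change of -1.70 in IR20, changed by 0.08 in Dagad deshi (difference -1.78, adjusted p = 2.32e-07). All 4 chlorophyll breakdown genes were uncalled in Dagad deshi, and for 3 the difference was called. RCCR1 was at the edge of the threshold there (change -0.28, adjusted p = 0.0500006), opposite in direction to its rise in IR20. For PORA the difference went the other way, with a change of -2.38 in Dagad deshi (difference 0.52, adjusted p = 0.0329), and 11 of 14 photosynthesis genes were lower there, against 5 in IR20, with the difference called above 0 for 4 genes and below 0 for 2.

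Of the 148 called genes, 10 were called in opposite directions in the cultivars. Lower in IR20 and higher in Dagad deshi were AMY1A, EP3A, AMY3D (-1.36 and 0.70), TPP1 (-0.67 and 0.88), H2B.10 (-0.69 and 0.61) and CSLA9 (-1.72 and 0.49). Higher in IR20 and lower in Dagad deshi were AOS3 (0.92 and -0.57), SUS3 (1.35 and -0.55), HAK16 (1.27 and -0.40) and GLB1 (0.43 and -0.24). AMY1A, which fell in IR20, read 94.8, 83.2 and 122 in Dagad deshi at 3 h and 15639.6, 16842 and 1784 at 6 h (change 6.08, difference -11.82, adjusted p = 3.85e-05). Its Dagad deshi groups did not overlap, though 1 array at 6 h was far below the other 2. EP3A went from 12, 13.8 and 18.9 to 1029, 636 and 257 in Dagad deshi (change 4.21, difference -6.65, adjusted p = 3.23e-05). BBD1, a nuclease of basal defence, rose in both, from 670.3, 585 and 602 to 1390.0, 1375 and 1358 in IR20 (change 1.13 ± 0.12) and by 4.11 in Dagad deshi, so the IR20 change was the smaller (difference -2.98, adjusted p = 3.48e-06). The differences of HSFC1B, DREB2B, WRKY76 and CDKE-1 were not called, with IR20 changes of 1.55, 1.24, 1.21 and 1.03 and Dagad deshi changes of 1.31, 0.93, 0.99 and 1.30.

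**Figure D4:**
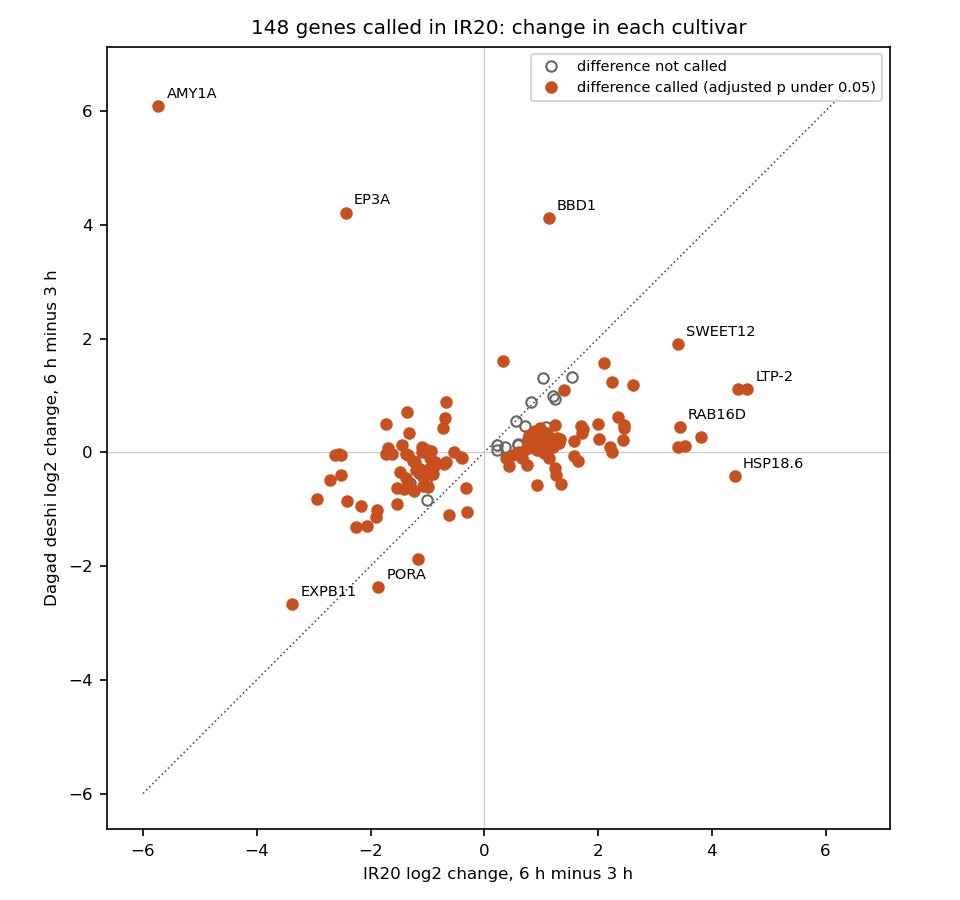
Log2 change from 3 h to 6 h of drought in IR20 (horizontal axis) and in Dagad deshi (vertical axis) for the 148 named genes called in IR20; filled points passed the test of the difference and the dotted line marks equal changes. AMY1A lies at -5.73 and 6.08, and most rises in IR20 lie below the line, such as RAB16D at 3.43 and 0.44.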

How the data were processed

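The values were microarray intensities on a linear scale, 1 per probe set and array, as the authors deposited them for 18 arrays. GCOS is named in the submitters' processing notes with no version, and the summarization and normalization are not given in the sources used here. Unequal scaling of the arrays would therefore move all probe sets of an array together, and centring each array was one of the alternatives. Of 57381 probe sets, 123 control probe sets were left out. Platform annotation and RefSeq (ASM3414082v1, by gene ID) tied 22436 probe sets to 1 gene and 95 to several, and 34850 are unnamed here.

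The log2 of the intensity plus 16 was fitted to 4 group means over the 12 drought arrays, which share the spread of a probe set. The functions were lmFit, contrasts.fit and eBayes with an intensity trend, of limma 3.58.1 under R 4.3.3. The IR20 change and its difference from the Dagad deshi change were tested two-sided, with Benjamini-Hochberg adjustment over 57258 probe sets. A gene was read from its probe set of the highest mean, with _s_at and _x_at probe sets used only where no other exists. Lists were described by counts and medians, with no test. A list holds the genes whose RefSeq symbol or synonym matched its name pattern, so family members without such a name are missing. The script was tested on simulated data.

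The members and lists were chosen with earlier results of these data known. Genes were named from those called without overlap between the groups. These were the 10 largest rises and 10 largest falls among genes with a symbol, and up to 4 called members of a list. The 5 largest cultivar differences each way and the 3 most changed probe sets each way were added. Beside them stood the GAPDH, actin, ubiquitin and cyclophilin genes that a RefSeq symbol or synonym names, whether called or not. Members of a list that fall outside this rule (such as RAB21, HSFA2C, ORC1, PDIL1-5, ZEP, RBCS, LIR1 and WRKY71) were named after their values were seen. Alternatives were quantile normalization, centring, pseudocounts of 1 and 64, filters on low values, a constant prior, the 6 arrays alone, all 18 arrays, a change beyond 1, a replicate block, probe sets of unique type only, and each array left out. A term for the 3′ to 5′ index was added after seeing the data.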

Additional observations from a re-analysis of the deposited data

Results flagged for a closer look

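Of the 156 named genes, 129 passed the test of the difference between the changes of IR20 and Dagad deshi from 3 h to 6 h, which the interaction term of the limma fit gives with adjusted p-values over all 57258 probe sets. The 66 with a difference of more than 1 on the log2 scale are given here as values, each the IR20 change minus the Dagad deshi change, 36 of them above 0 and 30 below. Both cultivars had 3 arrays at each time, and many of these genes were named because their change in IR20 was large.

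In the LEA, seed and lipid transfer group the difference was 2.99 for RAB16D, 1.73 for RAB25, 1.02 for RAB16C, 3.51 for LTP-2, 3.35 for R1C-Prx, 1.43 for TIP3-1 and 3.55 for ICL. For heat shock proteins, their factors and chaperones it was 4.83 for HSP18.6, 3.32 for HSP18.0, 2.24 for HSP17.9, 1.001 for HSP16.9A, 2.02 for HSFB2B, 1.503 for HSFA6B, 1.33 for HSFA2A and 1.80 for CLPB1. Hormone, transcription factor and proline genes gave 2.23 for PP2C51, 1.07 for PP2C59, 1.23 for SAPK1, 1.23 for P5CS2, 1.01 for HOX7 and 1.49 for AOS3. The values were 1.78 for SGR, 1.17 for NYC1 and 1.52 for RCCR1 in chlorophyll breakdown. Sugar, starch, wall and chitinase genes with a larger IR20 change had 1.505 for SWEET12, 1.11 for SWEET6A, 1.39 for SUS4, 1.90 for SUS3, 1.09 for SSI, 1.37 for CSLE1, 2.13 for LAC24 and 1.97 for Cht1. Transporters and nutrient genes had 3.41 for NRT2.2, 1.11 for PHR3, 1.65 for HAK18 and 1.67 for HAK16.

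Below 0, AMY1A and EP3A, of the 10 genes called in opposite directions in the cultivars, had differences of -11.82 and -6.65; for AMY1A the Dagad deshi arrays at 6 h were 15639.6, 16842 and 1784. BBD1 and PRR1 rose in IR20 by less than in Dagad deshi, at -2.98 and -1.28. Chlorophyll synthesis genes gave -1.23 for PPOX1, -1.78 for CHLD and -1.59 for URO-D2. Wall and cytoskeleton genes gave -2.12 for EXPA2, -2.47 for GLU6, -2.53 for ADF-9, -1.56 for 4CL2, -2.22 for CSLA9 and -1.09 for KIN10B. The water channel gene PIP2-4 had -1.17 and the histone gene H2B.10 -1.29. Among sugar, starch and trehalose genes the difference was -2.13 for SWEET11, -1.10 for CIN1, -2.06 for AMY3D, -1.30 for TPP3, -1.04 for TPP9 and -1.56 for TPP1. Hormone and transcription factor genes had -1.58 for LOGL10, -1.33 for RR9, -1.14 for LOX2.1, -1.66 for LOX1.1, -1.05 for HOX15 and -1.15 for DREB1G. The transporter and peroxiredoxin genes had -2.56 for PHT1-2, -1.70 for HAK17 and -2.22 for PRXIIE-2.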

How the results depend on the processing

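None of the 148 called named genes tested turned its direction under the alternatives tried, and directions of other probe sets were not counted. These genes were chosen with groups that do not overlap, so leaving out an array or changing the pseudocount could not turn them. The filters, the prior, the block, the 6 arrays alone and all 18 arrays leave the difference of the group means unchanged. Only the normalization, the centring and the index could have turned a direction. List medians near 0, such as that of the cytokinin genes, changed sign. With each array centred on its median, 31231 probe sets were called, 24988 of them lower, against 13295 and 6944 as deposited; the cause was not tested. With all 18 arrays, 4087 were higher, and the difference between cultivars was called for 5060 probe sets, 2237 above; the control arrays enter the spread there. A minimum change of 1 on the log2 scale left 2276 probe sets, 1050 higher and 1226 lower, and for the difference 1869, with 970 above and 899 below; of the 972 genes of the lists it left 55 higher and 70 lower, and of the 148 called named genes 96. Leaving out each IR20 array in turn gave 10636 to 12320 probe sets, 4792 to 5773 higher and 5844 to 6693 lower. No pairing by replicate number was seen (correlations of 0.0139, -0.0116 and -0.0177 between deviations of equal number). Many weak probe sets enter these correlations, so a pairing is not excluded. A replicate block gave 12135 calls, 5813 higher and 6322 lower. With the 3′ to 5′ index as a term, chosen after seeing the data, 9064 were higher and 6930 lower, so that more were higher than lower, against 6351 and 6944 without it. Of the 148 named genes, BADH1 lost its call with a constant prior (adjusted p = 0.0525), with the block (0.0573), with the 6 arrays alone (0.0826), with the index (0.155) and without any array but the 6 h replicate 1 (0.0523 to 0.148), PHT1-4 with a pseudocount of 64 (0.0616), and 13 with all 18 arrays. Many weak probe sets limit the rest: 33316 had a mean log2 value under 5 in both groups.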

Other observations

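Gene lists with no place in the comparisons gave these counts in IR20 from 3 h to 6 h, beside 22.1% higher and 32.9% lower over the 2457 genes. Iron and nicotianamine genes, which take up and carry iron, had 13 higher and 6 lower of 28, 2 of the former being near background (YSL4 and YSL10). MYB and bHLH transcription factors had 11 higher and 4 lower of 23, and NAC factors 3 higher and 3 lower of 8. The JAZ repressors of jasmonate signalling had 5 higher and 2 lower of 14, and the ethylene list 3 higher and 2 lower of 11. Among calcium signalling genes, the CIPK and CBL list had 11 higher and 6 lower of 31, the calcium-dependent and MAP kinases 5 higher and 11 lower of 36, and the calmodulins 5 higher and 5 lower of 26. The auxin conjugation and transport genes had 1 higher and 4 lower of 16, tubulins 1 higher and 3 lower of 11, glutaredoxins and glutathione transferases 5 higher and 8 lower of 24, and the fermentation and hemoglobin genes 2 higher and 2 lower of 6. Without the 6 h replicate 1, the ethylene list had 1 higher and 2 lower, the NAC factors 2 higher and 3 lower and the tubulins 2 higher and 3 lower. Over all 59 lists, 26 had more members higher than lower, 28 more lower, and 5 an equal number.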
